A study of Homo sapiens with 12 samples.

Results

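The step from 24 to 48 h in doxycycline (Dox) was examined by RNA-seq in MCF10A cells that carried a Dox-inducible TAZ-4SA transgene. The comparison holds 6 libraries of the 12 in the series, chosen by their titles: 3 of cells kept for 24 h and 3 of cells kept for 48 h in 0.05 µg/mL Dox. Both sides therefore carried the induced transgene, and what was compared is the second day of induction with the first. MCF10A is an immortalised, non-transformed human mammary epithelial line. TAZ-4SA is a form of TAZ (gene WWTR1) in which the serines that Hippo kinases phosphorylate are replaced, so that it stays active. All cells grew in DMEM/F12 with 5% horse serum, EGF, hydrocortisone, cholera toxin, insulin and antibiotics. The transduced line is the only cell model, no library of Dox-treated cells without the transgene was used here, and the labels do not say whether the 3 libraries of a group came from separate cultures, so the p-values measure the spread between these libraries, which may be technical. Time in Dox and time in culture cannot be told apart.

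TAZ and its paralogue YAP carry no DNA-binding domain of their own and act on genes through TEAD factors, often beside AP-1 factors of the FOS and JUN families. Their known targets encode matricellular proteins, growth factors and cytoskeletal regulators, and in mammary epithelium their activity is known for shifting cells towards growth and a mesenchymal form. Cells that grow fast draw heavily on amino acids. When amino acids or secretory capacity run short, translation of the transcription factor ATF4 rises and it switches on genes for amino-acid synthesis, uptake and stress signalling.

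The 6 libraries held 15382546 to 22956338 counts each. Of 14822 genes tested, 456 were called higher at 48 h than at 24 h, which is 3.08% of those tested, and 213 were called lower, which is 1.44%. A gene was called where its Benjamini-Hochberg adjusted p in edgeR's quasi-likelihood test was under 0.05 and its fold change was at least 2. The first of these criteria alone was met by 2706 genes in the upward direction (18.3%) and by 2708 in the downward direction (18.3%), with a median absolute log2 change of 0.37 over these 5414 genes. In every gene list described below without a call in edgeR, in either direction or in both, DESeq2 called none in that direction either. In what follows "rose" and "fell" are used of genes that passed the test at any fold, "called" of those that also changed 2-fold, and levels are counts scaled to a common library size (CPM) as mean ± SD over 3 libraries. Among the calls were 348 protein-coding genes higher and 161 lower of 12597 tested, and 73 long noncoding RNAs higher and 32 lower of 1423 tested. A fold of 4 or more was reached by 115 of the genes called higher and by 49 of those called lower. In 640 of the 669 calls (95.7%) the libraries of the 2 days did not overlap, so non-overlap does not set a called gene apart from other calls. The same share over all genes tested was not counted, so non-overlap is given below as a description only. Non-overlap was also required of the genes chosen by the size of their change. The first principal component of the 6 libraries, over the 500 most variable genes, took 54.2% of their variance and separated the groups, with scores from -18.46 to -17.11 at 24 h and from 17.19 to 18.86 at 48 h.

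**Figure D1:**
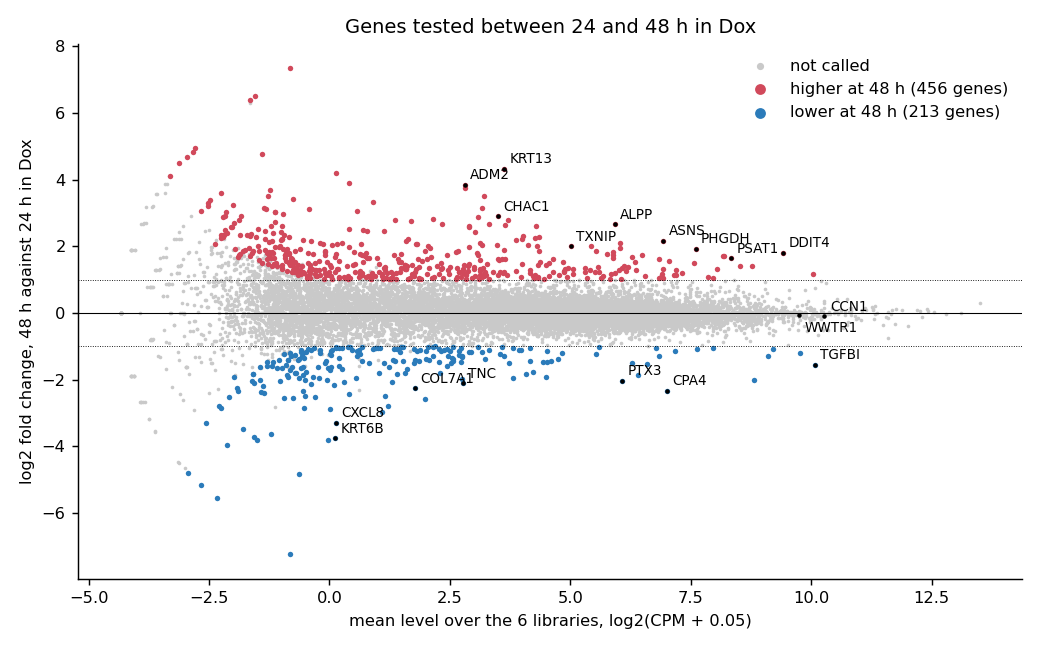
Log2 fold change of each tested gene between 24 and 48 h in Dox (y axis) against its mean level over the 6 libraries (x axis, log2 of CPM plus 0.05). Red points are the 456 genes called higher at 48 h, blue points the 213 called lower, grey points all others, and dotted lines mark a 2-fold change. Genes of amino-acid synthesis and stress lie above the upper line at high levels, TGFBI and CPA4 lie below the lower line, and WWTR1 and CCN1 lie near 0.

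WWTR1 itself, the targeted gene (chr3:149517235-149736714, minus strand, GRCh38), was at a similar level on both days. It held 811, 943 and 907 CPM in the 24 h libraries and 763, 859.7 and 907 CPM in the 48 h libraries, against 71.7 ± 2.87 CPM without Dox. The 2 time points overlapped, and the log2 change was -0.073 ± 0.063 (SE, adjusted p = 0.4). These counts pool the transgene and the endogenous gene. The effective length that RSEM fitted to WWTR1 was 1032.81 to 1128.59 nt at 24 h and 1035.17 to 1114.68 nt at 48 h, so that this estimate overlapped between the days too.

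The known targets of TAZ moved in both directions over the second day, for the most part by less than 2-fold. Of 22 members tested of the YAP/TAZ target signature, 0 was called higher and 1 lower, and the median log2 change was 0.05 beside 0.003 over all genes tested. From No Dox to 24 h the median of the same list was 1.71. At any fold 6 rose and 7 fell, where 18.3% of all genes did in each direction, and the quartiles of the list were -0.51 and 0.2. CCN1, the matricellular protein long used as a YAP/TAZ readout, was at 1329, 1216 and 1308 CPM at 24 h and 1228, 1154 and 1211 CPM at 48 h. These groups overlapped, with log2 change -0.101 ± 0.065, adjusted p = 0.24. CCN2, its close relative, rose slightly, from 88.4 ± 0.862 to 103 ± 2.28 CPM (log2 change 0.22 ± 0.072, adjusted p = 0.021). AMOTL2, a scaffold that binds and restrains YAP and TAZ, was at 411 ± 16.8 and 425 ± 12.8 CPM (adjusted p = 0.47). A few targets went on rising without reaching 2-fold. ANKRD1, a muscle ankyrin-repeat protein, went from 98.9 ± 3.47 to 177 ± 5.32 CPM (log2 change 0.83 ± 0.057, adjusted p = 2.6e-10), and the secreted protein CCDC80 went from 340.3 ± 5.18 to 502 ± 21.9 CPM (log2 change 0.56 ± 0.051, adjusted p = 2.6e-08). The EGFR ligand AREG rose less, with a log2 change of 0.23 ± 0.045 (adjusted p = 3.4e-04). F3, which encodes tissue factor, the cell-surface trigger of blood clotting, was the member called lower. It held 788, 827 and 794 CPM at 24 h and 381, 372 and 377 CPM at 48 h. Every 48 h library lay below every 24 h library (log2 change -1.09 ± 0.047, adjusted p = 2.0e-13).

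Among the partners, TEAD1 and TEAD3 rose by log2 changes of 0.39 and 0.55 (adjusted p = 1.7e-04 and 1.1e-05), while TEAD2, TEAD4 and YAP1 had changes of -0.070, -0.11 and 0.083 that did not pass the test (adjusted p = 0.61, 0.2 and 0.35). None of 23 Hippo components tested was called in edgeR, where 5 rose and 5 fell at any fold. WWC1, an upstream activator of the pathway and itself a TAZ target, rose by 0.33 on the log2 scale (adjusted p = 9.5e-06). MYC, the growth-promoting transcription factor, was at 262 ± 4.53 CPM at 24 h and 265 ± 8.11 CPM at 48 h (adjusted p = 0.82).

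Among the gene lists with 10 or more members tested, that of ATF4 and amino-acid stress had the highest median. Of 23 members tested, 14 were called higher and 0 lower, where 3.08% and 1.44% of all genes were, and the median log2 change was 1.26. In all 20 members rose and 1 fell. ASNS, the enzyme that makes asparagine from aspartate (chr7:97851677-97872542, minus strand), had the smallest p of all genes called higher. It held 44.6, 42.5 and 46.1 CPM in the 24 h libraries and 205, 203 and 192 CPM in the 48 h libraries. The groups were far apart next to the spread within each, with a ratio of 4.503 (log2 change 2.17 ± 0.053, adjusted p = 4.0e-17). CHAC1, an enzyme that degrades glutathione, held 2.38, 2.11 and 3.63 CPM at 24 h and 19.96, 18.5 and 21.3 CPM at 48 h. All 48 h libraries were higher, by 7.46-fold (log2 change 2.899 ± 0.16, adjusted p = 1.0e-11). DDIT4, a restrainer of the growth kinase mTORC1, was the most abundant of the list's called members, at 306, 296 and 305 CPM at 24 h and 1122, 1035 and 1020.4 CPM at 48 h. Its 48 h libraries were 3.503-fold higher (log2 change 1.81 ± 0.051, adjusted p = 4.0e-16).

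Other members of the list moved by comparable factors. VLDLR, a lipoprotein receptor, went from 1.81 ± 0.324 to 16.05 ± 2.04 CPM and CBS, which makes cystathionine from homocysteine and serine, went from 3.48 ± 0.283 to 21.4 ± 1.17 CPM (log2 changes 3.16 ± 0.15 and 2.63 ± 0.12). The secreted stress signal GDF15 went from 4.42 ± 0.731 to 17.7 ± 2.83 CPM, and the small chromatin protein NUPR1 went from 17.2 ± 1.24 to 68.3 ± 4.801 CPM (log2 changes 2.02 ± 0.17 and 1.997 ± 0.074). GPT2, the mitochondrial alanine transaminase, went from 56.6 ± 2.05 to 172 ± 1.33 CPM (log2 change 1.605 ± 0.049, adjusted p = 1.3e-15). SESN2, a leucine sensor that also restrains mTORC1, went from 17.3 ± 1.72 to 41.3 ± 2.74 CPM (log2 change 1.26 ± 0.084, adjusted p = 2.1e-10). The stress-induced transcription factor ATF3 stayed low in absolute terms, at 1.98 ± 0.277 and 6.05 ± 0.599 CPM (log2 change 1.63 ± 0.17, adjusted p = 2.8e-07). Values of PCK2, STC2, TRIB3 and ATF4 were looked up after these were seen. PCK2, the mitochondrial enzyme that makes phosphoenolpyruvate, went from 24.97 ± 0.86 to 84.1 ± 4.44 CPM (log2 change 1.75 ± 0.062, adjusted p = 1.2e-14). The secreted glycoprotein STC2 went from 136 ± 5.11 to 443 ± 5.06 CPM (log2 change 1.701 ± 0.054, adjusted p = 1.8e-15), and the pseudokinase TRIB3, a feedback inhibitor of the pathway, went from 59.3 ± 7.21 to 128 ± 10.02 CPM (log2 change 1.11 ± 0.084, adjusted p = 1.5e-09). ATF4 mRNA itself rose less than 2-fold, from 399.8 ± 16.9 to 662 ± 35.2 CPM (log2 change 0.73 ± 0.053, adjusted p = 7.2e-10).

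The promoters of 3 of these genes are shown because each holds a match to the letters TGATGNAA, searched on both strands. These letters stand for the CARE, the composite site where ATF4 binds with a CEBP partner. Binding of ATF4 was not measured here. The sequences are RefSeq's (GRCh38.p14), 250 bases before to 50 after the first start listed for the gene, in the gene's direction, with the match in capitals.
ASNS (chr7:97872359-97872658, minus strand): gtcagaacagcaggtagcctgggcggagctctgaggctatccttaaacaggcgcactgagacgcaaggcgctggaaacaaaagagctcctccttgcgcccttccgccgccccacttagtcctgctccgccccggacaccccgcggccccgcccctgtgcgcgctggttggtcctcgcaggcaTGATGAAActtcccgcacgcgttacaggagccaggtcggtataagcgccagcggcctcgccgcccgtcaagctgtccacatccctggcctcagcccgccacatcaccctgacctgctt
CHAC1 (chr15:40953221-40953520, plus strand): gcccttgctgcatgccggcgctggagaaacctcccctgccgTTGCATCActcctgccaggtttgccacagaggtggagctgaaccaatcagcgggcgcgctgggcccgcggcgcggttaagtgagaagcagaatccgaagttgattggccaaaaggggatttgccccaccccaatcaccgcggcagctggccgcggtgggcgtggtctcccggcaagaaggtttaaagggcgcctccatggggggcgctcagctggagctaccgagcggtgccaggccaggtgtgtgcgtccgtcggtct
ATF3 (chr1:212565157-212565456, plus strand): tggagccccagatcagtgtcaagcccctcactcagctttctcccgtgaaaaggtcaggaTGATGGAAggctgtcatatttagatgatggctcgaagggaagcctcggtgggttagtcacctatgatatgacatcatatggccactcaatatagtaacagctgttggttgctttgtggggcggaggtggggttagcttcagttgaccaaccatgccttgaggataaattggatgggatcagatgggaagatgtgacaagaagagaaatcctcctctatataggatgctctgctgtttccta
The match began 68 bases before the start in ASNS, 209 in CHAC1, where it lies on the opposite strand, and 191 in ATF3. Of the 24 protein-coding genes called higher in the 4 amino-acid lists (this list and the lists of serine and one-carbon enzymes, amino-acid transporters and tRNA synthetases), 19 had a promoter in the table and 5 of those held a match (26.3%). Matches were held by 6.27% of the promoters of all genes called higher, 3.28% of those called lower and 1.68% of all protein-coding genes tested, and by 3.67% of all 27305 promoters in the table. Only 73.3% of the genes called higher and 75.8% of those called lower had a promoter there, under the 80% set for such a check, so these shares are a description and no comparison is drawn from them.

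Serine synthesis, the pathway that branches from glycolysis and feeds folate metabolism, was higher through its whole length. PHGDH, the first enzyme, held 86.4, 72.2 and 83.8 CPM at 24 h and 319, 303 and 299.6 CPM at 48 h (log2 change 1.93 ± 0.061, adjusted p = 1.6e-15). PSAT1, the second, held 155, 159 and 159 CPM and then 490.2, 504 and 484 CPM (log2 change 1.65 ± 0.044, adjusted p = 1.9e-16). PSPH, the last, went from 24.6 ± 1.28 to 60.1 ± 2.18 CPM (log2 change 1.29 ± 0.064, adjusted p = 1.8e-12). For all 3 enzymes every 48 h library exceeded every 24 h library. ALDH1L2, a mitochondrial folate enzyme, was called as well (log2 change 1.56 ± 0.076, adjusted p = 1.5e-12), and MTHFD2 and SHMT2, looked up afterwards, rose by log2 changes of 0.97 and 0.67 (adjusted p = 1.7e-12 and 2.6e-10). Over the 19 serine, glycine and one-carbon enzymes tested, 4 were called higher and 0 lower, 11 rose, 1 fell, and the median log2 change was 0.28. Of all genes tested 3.08% were called higher and 1.44% lower, and 18.3% passed the test in each direction.

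Of 22 amino-acid transporters tested, 5 were called higher and 0 lower, where 3.08% and 1.44% of all genes were. SLC6A9, a glycine importer, went from 6.71 ± 0.845 to 31.8 ± 1.75 CPM, and SLC1A4, an exchanger of alanine, serine and cysteine, went from 5.59 ± 0.303 to 26.1 ± 1.85 CPM (log2 changes 2.25 ± 0.094 and 2.22 ± 0.10). The cystine importer SLC7A11 held 32.7, 42.2 and 35.3 CPM at 24 h and 104, 124 and 126 CPM at 48 h. Its groups did not overlap (log2 change 1.69 ± 0.086, adjusted p = 2.7e-12). The glutamate transporter SLC1A3 went from 37.7 ± 1.34 to 101 ± 3.46 CPM (log2 change 1.42 ± 0.054, adjusted p = 3.2e-14), and SLC43A1, a carrier of large neutral amino acids, went from 0.518 ± 0.152 to 2.81 ± 0.424 CPM (log2 change 2.45 ± 0.30, adjusted p = 1.6e-06). Both chains of the most abundant importer of large neutral amino acids, looked up afterwards, moved less: SLC7A5 was at 3716 ± 185 and 3909.6 ± 176 CPM (adjusted p = 0.27) and SLC3A2 rose by 0.36 on the log2 scale (adjusted p = 7.1e-05). Among 20 cytosolic tRNA synthetases 13 rose and 2 fell, where 18.3% of all genes did in each direction. Their median log2 change was 0.34. The cysteine enzyme CARS1 was the synthetase called higher, from 79.6 ± 3.43 to 164 ± 2.15 CPM (log2 change 1.04 ± 0.052, adjusted p = 1.9e-12), at the edge of the 2-fold threshold: with RSEM's effective lengths as offsets its log2 change was 0.996 in edgeR and 0.978 in DESeq2, under the threshold in both. By contrast none of 24 ER chaperones and unfolded-protein-response genes was called, where 5 rose and 9 fell. HSP90B1, the ER form of HSP90, was at 1205 ± 13.3 and 1135 ± 26.2 CPM (adjusted p = 0.093).

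**Figure D2:**
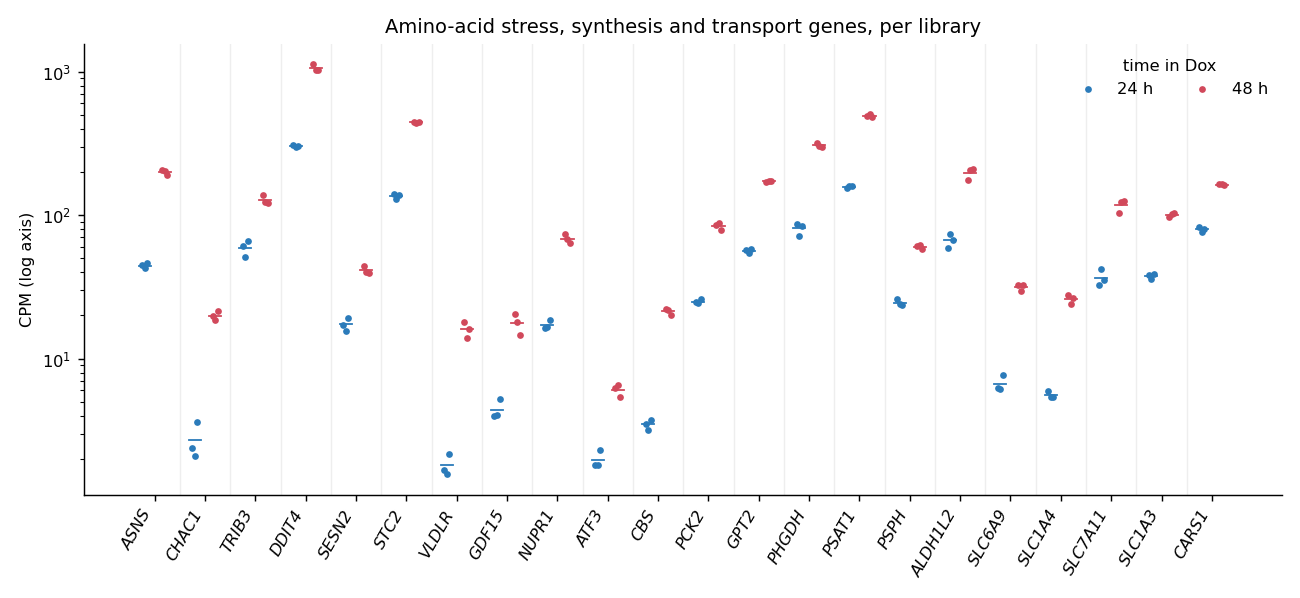
Level of 22 amino-acid stress, synthesis and transport genes in each of the 6 libraries (points; bars are group means; CPM on a log axis), 24 h in blue and 48 h in red. For every gene shown the 3 libraries at 48 h lie above the 3 at 24 h, and DDIT4 is the most abundant.

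The amino-acid genes differed in their changes before 24 h, and 3 of the 4 given here fell after 48 h. The comparisons of 24 h with No Dox and of 72 with 48 h share libraries with the comparison described here, so their values are only set beside it. PSAT1 had already a log2 change of 1.59 from No Dox to 24 h and had one of -0.91 from 48 to 72 h (adjusted p = 1.6e-17 and 3.6e-12). DDIT4 had -1.18 before and -0.44 after (adjusted p = 8.1e-15 and 7.2e-07). CHAC1 had 2.25 before and -2.16 after (adjusted p = 2.2e-07 and 9.3e-10), so that its level of 19.9 CPM at 48 h stood above both neighbours, 2.71 CPM at 24 h and 4.38 CPM at 72 h. GDF15 had -1.46 before and rose by 1.05 after (adjusted p = 2.2e-07 and 2.9e-06). Over the list of ATF4 and amino-acid stress the median log2 change was 0.34 from No Dox to 24 h and -0.44 from 48 to 72 h, beside -0.028 and -0.004 over all genes tested.

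The second group of genes that moved together was that of FOXO targets and quiescence, genes typically switched on when growth-factor signalling is low. Of 20 tested, 8 were called higher and 0 lower, where 3.08% and 1.44% of all genes were, and the median log2 change was 1.0. TXNIP, which blocks thioredoxin and glucose uptake, held 11.8, 13.6 and 13.4 CPM at 24 h and 49.6, 52.3 and 52.7 CPM at 48 h. The groups did not overlap and the ratio was 4.0 (log2 change 2.0 ± 0.076, adjusted p = 2.8e-14). This left it far under its level without Dox of 1446 ± 36.6 CPM. The transcriptional repressors BCL6 and ZBTB16 went from 8.45 ± 0.532 to 23.6 ± 1.43 CPM and from 3.68 ± 0.371 to 12.9 ± 0.99 CPM (log2 changes 1.48 ± 0.088 and 1.79 ± 0.11). KLF9 and KLF15, zinc-finger factors that respond to glucocorticoid, went from 5.11 ± 0.976 to 14.1 ± 0.896 CPM and from 2.005 ± 0.423 to 5.17 ± 0.298 CPM (log2 changes 1.47 ± 0.12 and 1.38 ± 0.17). The unconventional cyclin CCNG2 went from 10.8 ± 1.3996 to 29.2 ± 2.201 CPM (log2 change 1.44 ± 0.089, adjusted p = 6.4e-11). TSC22D3, a glucocorticoid-induced leucine-zipper protein looked up afterwards, was 6.12-fold higher, from 5.49 ± 0.224 to 33.5 ± 0.567 CPM (log2 change 2.61 ± 0.10, adjusted p = 1.7e-14). The calls of FOXO1 and SEPTIN4 were less firm. FOXO1 itself had a log2 change of 1.03 (adjusted p = 9.2e-08), which was 0.97 without 24 h replicate 3 or without 48 h replicate 3, and SEPTIN4 (0.335 ± 0.172 and 0.791 ± 0.234 CPM, adjusted p = 0.034) lost its call in 4 of the 6 fits that left out a library (without 24 h replicate 1 or 2, or 48 h replicate 1 or 3).

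**Figure D3:**
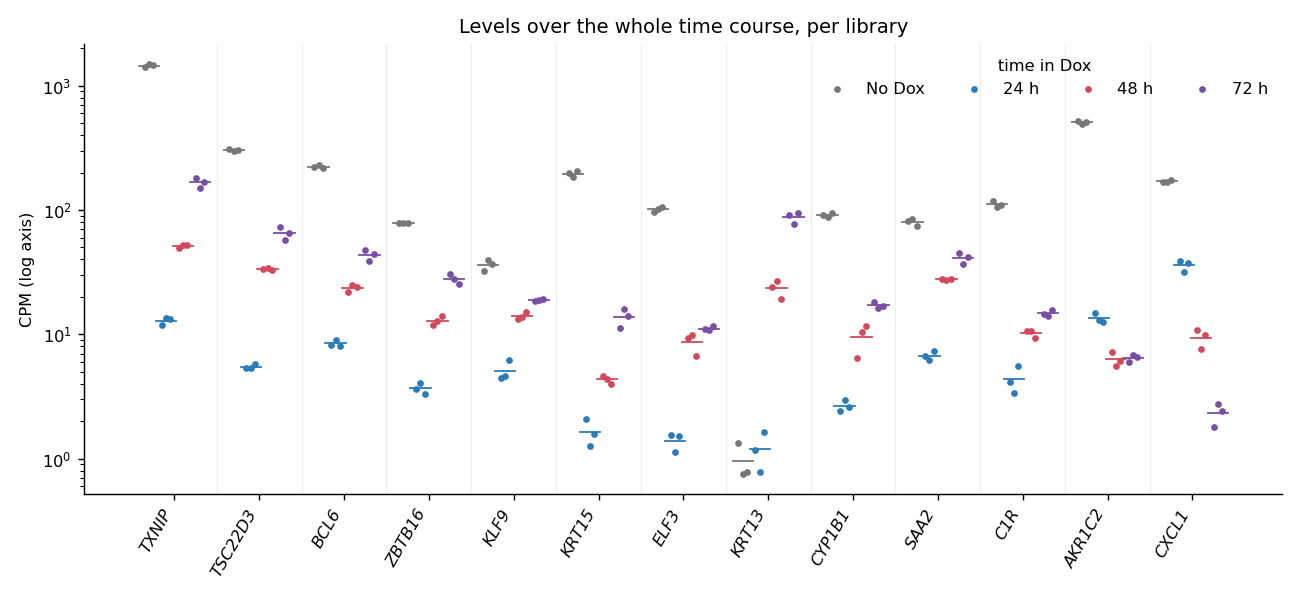
Level of 13 genes in each of the 12 libraries (points; bars are group means; CPM on a log axis), with No Dox in grey, 24 h in blue, 48 h in red and 72 h in purple. TXNIP, TSC22D3, BCL6, ZBTB16, KLF9, KRT15, ELF3, CYP1B1, SAA2 and C1R are lower at 24 h than without Dox and higher at 48 h than at 24 h. AKR1C2 and CXCL1 are lower again at 48 h, and KRT13 is near its No Dox level at 24 h.

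The same order of levels, high without Dox, lowest at 24 h and higher again at 48 h, was seen in several of the other genes named. The log2 change from No Dox to 24 h was -6.81 for TXNIP, -4.72 for BCL6, -6.18 for the epithelial transcription factor ELF3 and -6.88 for the basal keratin KRT15. From 24 to 48 h it was 2.0, 1.48, 2.65 and 1.396, and from 48 to 72 h 1.698, 0.89, 0.35 and 1.64. At 72 h TXNIP, BCL6, ELF3 and KRT15 had mean levels of 167, 43.7, 11.1 and 13.8 CPM, beside 1446, 223, 101 and 196 CPM without Dox.

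Keratins, the intermediate filaments that mark epithelial types, moved in different directions. KRT13, a keratin of mucosal squamous epithelium (chr17:41500981-41505705, minus strand), had the largest fold among protein-coding calls with at least 5 CPM. It held 1.17, 0.784 and 1.63 CPM at 24 h and 23.98, 27.005 and 19.2 CPM at 48 h. No library overlapped, the ratio was 20.1 (log2 change 4.33 ± 0.19, adjusted p = 2.8e-13), and at 72 h the level was 87.3 ± 9.28 CPM. KRT4, its usual filament partner, held 1.78, 1.52 and 1.09 CPM at 24 h and 18.5, 17.4 and 15.1 CPM at 48 h (log2 change 3.51 ± 0.19, adjusted p = 5.5e-12). Unlike KRT13, which was at 0.96 CPM without Dox, KRT4 had risen already by 24 h from 0.0164 CPM. The simple-epithelial keratins KRT8 and KRT18 rose by just under 2-fold, from 885 ± 60.95 to 1649 ± 81.6 CPM and from 808 ± 56.5 to 1561 ± 78.4 CPM (log2 changes 0.898 ± 0.055 and 0.95 ± 0.058). KRT16, a keratin of stressed and wounded epidermis, was called higher (log2 change 1.31 ± 0.13, adjusted p = 7.9e-08). Its relative KRT6B was called lower, from 2.81, 1.47 and 1.51 CPM to 0.199, 0.0435 and 0.194 CPM (log2 change -3.77 ± 0.51, adjusted p = 7.0e-06). KRT14 and KRT5, the main basal pair, fell without reaching 2-fold, with log2 changes of -0.96 and -0.14 (adjusted p = 4.6e-08 and 0.036).

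Other epithelial genes moved in both directions. Of 15 epithelial lineage factors tested, 2 were called higher and 1 lower, and at any fold 7 rose and 4 fell. Over all genes tested 3.08% were called higher and 1.44% lower, and 18.3% passed the test in each direction. At any fold 5 of 9 desmosome genes rose and 2 fell, against 7 and 1 of 14 tight-junction genes and 2 and 1 of 10 genes of the cornified envelope. ELF3 held 1.54, 1.13 and 1.51 CPM at 24 h and 9.28, 9.87 and 6.74 CPM at 48 h, with no overlap (log2 change 2.65 ± 0.16, adjusted p = 5.7e-11). GRHL3, a grainyhead factor of barrier formation, went from 1.396 ± 0.322 to 3.97 ± 0.594 CPM (log2 change 1.54 ± 0.22, adjusted p = 1.2e-05), whereas SOX9, a progenitor factor, went from 7.03 ± 0.537 to 3.23 ± 0.492 CPM (log2 change -1.12 ± 0.17, adjusted p = 2.8e-05). TP63, the basal master regulator, fell with a log2 change of -0.71 (adjusted p = 8.7e-04). In the desmosome list the cadherin DSG3 was called higher, from 12.9 ± 0.947 to 27.2 ± 1.498 CPM (log2 change 1.08 ± 0.072, adjusted p = 2.1e-10), and the cross-linking plakin PPL, of the cornified-envelope list, went from 41.3 ± 4.29 to 138 ± 5.97 CPM (log2 change 1.74 ± 0.065, adjusted p = 2.1e-14). CLDN7 was at the edge of the threshold (log2 change 1.005 ± 0.076, adjusted p = 1.3e-09, and 0.91 and 0.97 without 24 h replicate 2 and 48 h replicate 1). Its log2 change was 0.993 in DESeq2 and with RLE size factors in edgeR, under the threshold in both. TJP3, a tight-junction scaffold, was 8.21-fold higher at under 1 CPM (log2 change 3.04 ± 0.51, adjusted p = 8.4e-05), but far under its level of 18.1 CPM without Dox. CDH1, or E-cadherin, rose by 0.53 and VIM, or vimentin, fell by 0.61 on the log2 scale (adjusted p = 5.9e-09 and 1.3e-08). Among 16 cadherins and factors of the epithelial-mesenchymal transition, 0 was called higher and 3 lower. SNAI2, a repressor of E-cadherin, was the most abundant of those, from 26.2 ± 1.48 to 9.65 ± 0.996 CPM (log2 change -1.44 ± 0.089, adjusted p = 6.2e-11). The other 2, CDH11 and SNAI1, were near or under 2 CPM and lost their calls in 2 and 4 of the 6 fits that left out a library (without 24 h replicate 1 and 48 h replicate 1 for CDH11, and without 24 h replicates 2 and 3 and 48 h replicates 2 and 3 for SNAI1). Both also lost them with effective lengths as offsets (adjusted p = 0.28 in DESeq2 and 0.13 in edgeR for CDH11, 0.060 and 0.053 for SNAI1).

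Genes of pericellular proteolysis, matrix and basement membrane were among those lower at 48 h. PLAU, a protease that activates plasminogen (chr10:73909177-73917496, plus strand), held 33.8, 32.97 and 33.3 CPM at 24 h and 10.9, 11.05 and 14.5 CPM at 48 h. All 3 libraries at 24 h were higher (log2 change -1.47 ± 0.10, adjusted p = 1.8e-10). The membrane proteases ADAM12 and ADAM19 went from 17.4 ± 1.599 to 7.22 ± 0.621 CPM and from 4.82 ± 0.327 to 2.14 ± 0.485 CPM (log2 changes -1.28 ± 0.12 and -1.16 ± 0.20). Of 18 members of the plasminogen system, metalloproteases and their inhibitors tested, 0 was called higher and 5 lower, and the median log2 change was -0.42, the lowest among the lists with 10 or more members tested. At any fold 5 rose and 10 fell, where 18.3% of all genes did in each direction. Of all genes 3.08% were called higher and 1.44% lower. ADAMTS6, also called lower, was not called with effective lengths as offsets. The metalloproteases ADAMTS9 and ADAMTS12, outside the list and looked up afterwards, were called higher (log2 changes 1.74 and 1.08).

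TGFBI, a matrix protein named for its induction by TGF-beta, was the most abundant of the genes called lower. It held 1664, 1523 and 1628 CPM at 24 h and 558, 527 and 554 CPM at 48 h, without overlap (log2 change -1.55 ± 0.046, adjusted p = 6.8e-16). The matricellular protein tenascin C, TNC, went from 11.04 ± 0.386 to 2.52 ± 0.758 CPM (log2 change -2.104 ± 0.21, adjusted p = 1.1e-07, with an adjusted p of 0.052 in DESeq2 with effective lengths). Of 16 hemidesmosome and basement-membrane genes tested, 0 was called higher and 3 lower, while 4 rose and 9 fell at any fold. Over all genes 3.08% and 1.44% were called, and 18.3% passed the test in each direction. The laminin chains LAMB3 and LAMA3, looked up afterwards, fell by log2 changes of -0.95 and -0.83 (adjusted p = 5.8e-11 and 1.5e-11). LAMB3 crossed the 2-fold line in edgeR with effective lengths as offsets and without 24 h replicate 2 (-1.02 in both). COL17A1, the transmembrane collagen of the hemidesmosome, held 146, 139 and 146 CPM and then 48.6, 50.9 and 49.6 CPM (log2 change -1.53 ± 0.058, adjusted p = 2.6e-14). COL7A1, which forms the anchoring fibrils, went from 5.604 ± 1.1004 to 1.13 ± 0.244 CPM (log2 change -2.26 ± 0.22, adjusted p = 8.2e-08). The integrin subunit ITGB4 of the hemidesmosome rose instead, by 0.42 on the log2 scale (adjusted p = 3.2e-05).

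Not all matrix genes fell. FBN2, a fibrillin of elastic fibres, went from 642 ± 35.5 to 1457 ± 159.8 CPM (log2 change 1.18 ± 0.069, adjusted p = 2.2e-11), and COL8A1, a short-chain collagen, went from 151 ± 5.398 to 316 ± 14.1 CPM (log2 change 1.07 ± 0.050, adjusted p = 9.5e-13). The collagen cross-linking enzyme LOX went from 26.5 ± 0.687 to 69.2 ± 5.41 CPM and the microfibril protein MFAP5 went from 12.3 ± 0.537 to 37.7 ± 1.24 CPM (log2 changes 1.38 ± 0.063 and 1.61 ± 0.090). COL6A3 and COL16A1 were called lower from levels of 1.29 and 3.76 CPM (log2 changes -2.51 ± 0.45 and -1.18 ± 0.18). Over 15 collagens 2 were called higher and 2 lower, and over 23 matricellular and elastic-fibre proteins 3 and 2. The shares over all genes were 3.08% and 1.44%. The higher collagens included COL9A2, whose call rested on single libraries: it had adjusted p = 0.063 without 24 h replicate 3 and 0.071 without 48 h replicate 2, and a log2 change of 0.89 without 48 h replicate 1.

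**Figure D4:**
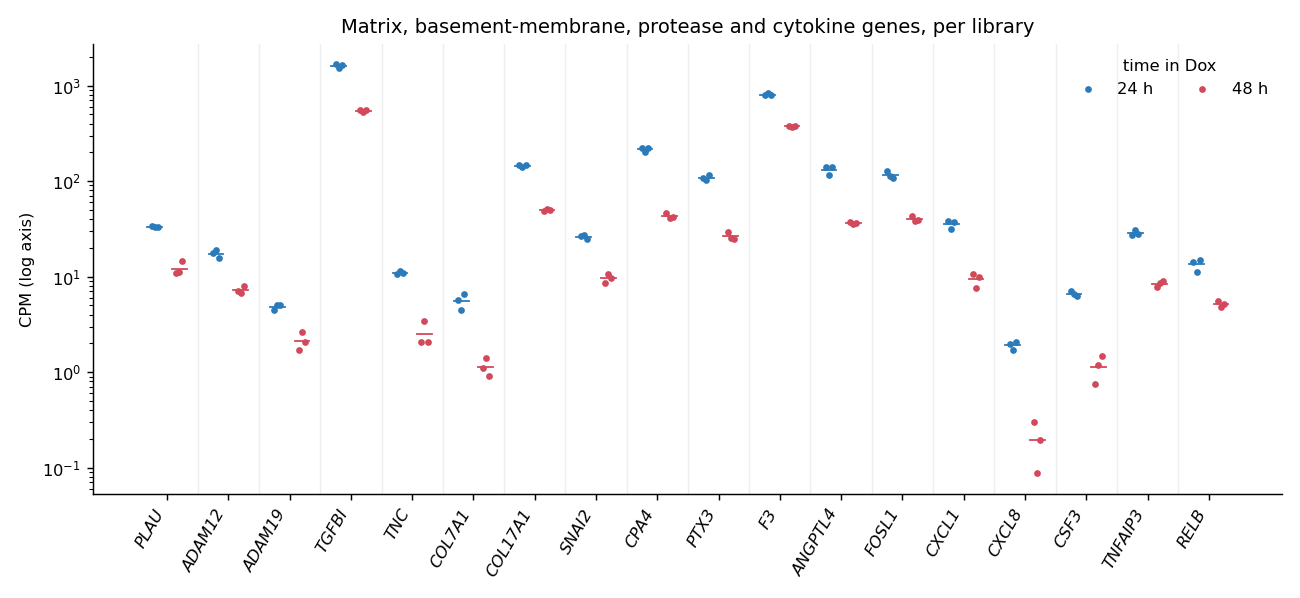
Level of 18 matrix, basement-membrane, protease, coagulation and cytokine genes in each of the 6 libraries (points; bars are group means; CPM on a log axis), 24 h in blue and 48 h in red. For every gene shown the 3 libraries at 48 h lie under the 3 at 24 h, over levels from under 1 to over 1000 CPM.

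CPA4 and PTX3 stood out among the remaining genes called lower. CPA4, a secreted carboxypeptidase, held 224, 201 and 221 CPM at 24 h and 45.9, 40.7 and 41.8 CPM at 48 h. It was 5.03-fold lower with no overlap (log2 change -2.33 ± 0.069, adjusted p = 6.8e-16). Its level was 1.595 CPM without Dox and 8.26 CPM at 72 h, so that 24 h was the highest of the 4 time points. PTX3, a secreted pattern-recognition protein, held 108, 103 and 115 CPM at 24 h and 29.1, 25.2 and 25.01 CPM at 48 h, 4.11-fold lower (log2 change -2.04 ± 0.073, adjusted p = 1.3e-14). FOSL1, an AP-1 subunit and known TAZ target, held 127, 113 and 107 CPM at 24 h and 43.05, 38.6 and 39.6 CPM at 48 h. Its groups did not overlap (log2 change -1.52 ± 0.078, adjusted p = 2.9e-12), and without Dox it was at 26.97 CPM. The related FOSL2 rose, from 174 ± 6.01 to 310.3 ± 22.1 CPM (log2 change 0.84 ± 0.056, adjusted p = 2.1e-10), and FOS was called higher at low levels, from 1.32 ± 0.264 to 3.94 ± 0.961 CPM (log2 change 1.61 ± 0.19, adjusted p = 8.1e-07). Over 18 AP-1 and immediate-early factors 3 were called higher and 1 lower, beside 3.08% and 1.44% of all genes.

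The AP-1 site, searched as TGANTCA on both strands, was held by 21.3% of the 122 promoters of protein-coding genes called lower (26 genes), 5.88% of the 255 of those called higher (15 genes), 4.54% of the 10215 of all protein-coding genes tested and 7.76% of all 27305 in the table. The same limit applies as above, since 75.8% of the genes called lower had a promoter in the table. The promoters of CPA4, F3 and S100A2 are shown because each holds a match to these letters and the gene is among the more abundant ones called lower. The match is in capitals, and the sequences are again RefSeq's (GRCh38.p14).
CPA4 (chr7:130292911-130293210, plus strand): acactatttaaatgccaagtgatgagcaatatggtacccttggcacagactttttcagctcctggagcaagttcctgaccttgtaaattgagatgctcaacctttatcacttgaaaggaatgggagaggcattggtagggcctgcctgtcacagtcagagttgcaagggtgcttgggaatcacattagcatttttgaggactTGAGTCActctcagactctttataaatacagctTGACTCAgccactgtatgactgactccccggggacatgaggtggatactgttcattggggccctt
F3 (chr1:94541710-94542009, minus strand): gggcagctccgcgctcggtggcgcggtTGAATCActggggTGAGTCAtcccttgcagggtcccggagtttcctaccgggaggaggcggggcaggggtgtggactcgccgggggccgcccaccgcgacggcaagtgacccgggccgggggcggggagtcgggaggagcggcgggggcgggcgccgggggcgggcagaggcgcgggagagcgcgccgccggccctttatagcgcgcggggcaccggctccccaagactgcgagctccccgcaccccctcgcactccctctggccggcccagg
S100A2 (chr1:153565795-153566094, minus strand): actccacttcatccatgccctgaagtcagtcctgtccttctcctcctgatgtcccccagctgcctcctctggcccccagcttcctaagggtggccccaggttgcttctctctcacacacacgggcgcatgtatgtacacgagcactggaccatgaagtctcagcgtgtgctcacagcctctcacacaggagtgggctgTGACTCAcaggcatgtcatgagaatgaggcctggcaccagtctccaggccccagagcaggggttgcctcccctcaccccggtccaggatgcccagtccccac
Matches began 48 and 15 bases before the start in CPA4, 223 and 210 in F3 and 52 in S100A2. The TEAD site, searched as GGAATG, was held by 11.4% of the promoters of genes called higher and 5.74% of those called lower, beside 10.7% of all tested. The other motifs searched were the E-box CACGTG (5.88%, 7.38% and 10.2% in the same order), the CCAAT box (37.3%, 32.8% and 36.8%), the kappaB site GGGNNTTCC (5.49%, 10.7% and 8.14%), the interferon response element GAAANNGAA (5.1%, 9.02% and 6.43%), the metal response element TGCGCNC (23.5%, 18% and 31.1%), the unfolded protein response core TGACGTGG (1.18%, 0.82% and 0.91%), the GRHL site AACNGGTT (0.784%, 1.64% and 1.34%) and the E2F site TTTGGCGC (0%, 0% and 1.11%). A match is a description of these windows. The CARE and the AP-1 site share their first 3 letters but no window of letters can be a match of both at the same position.

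Some secreted signals of inflammation fell further. Of 9 neutrophil chemokines and cytokines tested, 0 was called higher and 3 lower, and at any fold 1 rose and 4 fell, with a median log2 change of -0.99. Among all genes 3.08% were called higher and 1.44% lower, and 18.3% passed the test in each direction. CXCL1, a neutrophil chemokine, held 38.6, 31.5 and 37.2 CPM at 24 h and 10.8, 7.57 and 9.91 CPM at 48 h. CXCL8, another of them, held 1.96, 1.71 and 2.06 CPM and then 0.298, 0.087 and 0.194 CPM, and the granulocyte growth factor CSF3 held 7.06, 6.51 and 6.29 CPM and then 0.745, 1.17 and 1.49 CPM. In all 3 the groups were apart (log2 changes -1.94 ± 0.11, -3.298 ± 0.31 and -2.57 ± 0.18). Their No Dox levels were 169.5, 83.8 and 62.7 CPM, so that they had been lower at 24 h already. CCL2, a chemokine that attracts monocytes, is not in the list and was looked up afterwards. It was called higher, from 1.09 ± 0.362 to 4.98 ± 1.29 CPM (log2 change 2.23 ± 0.26, adjusted p = 7.3e-07). The NF-kB feedback inhibitor TNFAIP3 and the NF-kB subunit RELB went from 28.7 ± 1.81 to 8.46 ± 0.597 CPM and from 13.5 ± 1.93 to 5.19 ± 0.414 CPM (log2 changes -1.76 ± 0.086 and -1.37 ± 0.12). They were the calls among 19 NF-kB subunits and feedback genes, of which 2 rose and 7 fell at any fold.

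Several constitutive defence and acute-phase genes were higher at 48 h. For the counts of this paragraph the shares over all genes were 3.08% called higher, 1.44% called lower and 18.3% in each direction at any fold. Of 9 secreted defence proteins tested, 5 were called higher and 0 lower, and at any fold 5 rose and 2 fell. The genes that fell were the secreted protease inhibitors SLPI and PI3, looked up afterwards, from 85.9 ± 8.02 to 46.1 ± 3.09 CPM and from 30.5 ± 1.55 to 19.1 ± 3.17 CPM (log2 changes -0.899 ± 0.082 and -0.66 ± 0.10). SAA1, an acute-phase apolipoprotein, held 209, 184 and 215 CPM at 24 h and 576, 539 and 489 CPM at 48 h, and its near-identical neighbour SAA2 went from 6.73 ± 0.553 to 27.8 ± 0.348 CPM (log2 changes 1.399 ± 0.088 and 2.05 ± 0.10). Reads of such close copies may have been split between them by RSEM. The cell-surface mucin MUC1 went from 27.3 ± 4.63 to 91.1 ± 3.27 CPM (log2 change 1.74 ± 0.082, adjusted p = 8.9e-13). LCN2, a siderophore-binding protein, was at 1.12 ± 0.163 and 2.41 ± 0.493 CPM (log2 change 1.08 ± 0.20, adjusted p = 2.2e-04, and log2 changes of 0.96 and 0.93 without 24 h replicate 2 and 48 h replicate 3). The complement protease C1R went from 4.35 ± 1.11 to 10.3 ± 0.745 CPM (log2 change 1.27 ± 0.13, adjusted p = 1.3e-07). It was among 3 of 16 complement genes called higher, and 8 of them rose while 2 fell. The calcium-binding pair S100A8 and S100A9, which form calprotectin, went from 3.52 ± 0.214 to 8.92 ± 1.55 CPM and from 20.7 ± 2.22 to 46.2 ± 4.67 CPM, whereas S100A2, an S100 of basal cells, held 776, 773 and 796 CPM and then 338, 309 and 299.8 CPM (log2 changes 1.35 ± 0.14, 1.16 ± 0.077 and -1.31 ± 0.089). S100A8 and S100A9 stood at 1.08 and 3.94 CPM at 72 h, below both earlier levels in Dox. Of 14 S100 proteins tested, 2 were called higher and 2 lower. At any fold 2 of them rose and 7 fell, with a median log2 change of -0.23. Among the clade B serpins, SERPINB1 went from 42.6 ± 3.32 to 101 ± 6.91 CPM and SERPINB3 from 0.319 ± 0.092 to 3.33 ± 0.35 CPM (log2 changes 1.24 ± 0.065 and 3.33 ± 0.30). Of 8 such serpins tested, 3 were called higher and 1 lower, and at any fold 3 rose and 3 fell. Of 33 interferon-stimulated genes 13 rose and 4 fell, with 2 called higher, of which IFIT2 was the more abundant (log2 change 1.27 ± 0.14, adjusted p = 6.4e-07).

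Proliferation genes, which had been induced by 24 h, were shifted slightly down. Of 47 replication and G1/S genes tested, 2 rose and 24 fell, and of 44 G2/M and mitotic genes 1 rose and 31 fell. The share over all genes was 18.3% in each direction. No member of either list was called in edgeR, and the median log2 changes were -0.17 and -0.25, beside 1.78 and 2.01 from No Dox to 24 h. RRM2, which makes deoxynucleotides, held 433, 454 and 427 CPM at 24 h and 298, 299.7 and 319.7 CPM at 48 h. These groups did not overlap (log2 change -0.52 ± 0.047, adjusted p = 2.6e-08), although the level without Dox was only 49.03 ± 1.28 CPM. CCNB1, the mitotic cyclin, fell by 0.46 on the log2 scale (adjusted p = 9.5e-08), and MKI67, the proliferation antigen, was at 616 ± 8.04 and 557 ± 34.2 CPM (adjusted p = 0.06). CCND1, the G1 cyclin that answers to mitogens, fell from 721 ± 14.3 to 455 ± 10.99 CPM (log2 change -0.66 ± 0.044, adjusted p = 1.7e-10). The CDK inhibitor CDKN1C was the call among 21 G1 regulators. It held 2.15, 1.67 and 2.48 CPM at 24 h and 13.9, 13.7 and 10.6 CPM at 48 h, all higher (log2 change 2.62 ± 0.16, adjusted p = 3.6e-11). CDKN1A, or p21, rose by 0.78 (adjusted p = 2.3e-09). In the BCL2 family the sensitiser HRK went from 6.91 ± 0.547 to 33.6 ± 1.22 CPM (log2 change 2.27 ± 0.093, adjusted p = 1.1e-13), while BBC3 was near the edge of the threshold (log2 change 1.03 ± 0.13, adjusted p = 3.7e-06, and 0.96 without 48 h replicate 1) and BMF stayed under 0.3 CPM in every library of the comparison and lost its call without any of 4 libraries (24 h replicates 1 and 3, 48 h replicates 1 and 3). With effective lengths as offsets the log2 change of BBC3 was 0.94 in DESeq2 and 0.95 in edgeR, under the threshold in both.

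The growth machinery showed the same small downward shift. Of 30 ribosome-biogenesis factors 0 rose and 21 fell (median log2 change -0.23), and of 29 proteasome genes 0 rose and 21 fell (median -0.22). Again 18.3% of all genes did in each direction. PSMD2, a regulatory subunit of the proteasome, held 717, 681 and 684 CPM at 24 h and 494, 487 and 489 CPM at 48 h, without overlap (log2 change -0.503 ± 0.043, adjusted p = 9.5e-09). NCL, the nucleolar protein nucleolin, fell by 0.18 on the log2 scale (adjusted p = 0.0043). The 76 cytosolic ribosomal protein genes had a median of 0.010, with 1 that rose and 0 that fell. For the replication, G2/M, ribosome-biogenesis and proteasome lists the median stayed negative under each of the 6 other scalings, models or sample sets run, at -0.16 to -0.18, -0.24 to -0.27, -0.21 to -0.25 and -0.21 to -0.26. With effective lengths in edgeR the count of replication genes that fell was 14 in place of 24.

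Lipid genes shifted up by similarly small amounts. Of 24 cholesterol-synthesis genes 15 rose and 0 fell, with none called, and of 19 genes of fatty-acid synthesis 15 rose, 0 fell and 3 were called higher (9 rose with effective lengths as offsets). Over all genes 18.3% rose, 18.3% fell and 3.08% were called higher. LPIN1, a phosphatidate phosphatase, went from 89.3 ± 6.03 to 195 ± 13.4 CPM, and ACACB, the mitochondrial acetyl-CoA carboxylase, went from 4.33 ± 0.704 to 9.77 ± 0.534 CPM (log2 changes 1.13 ± 0.057 and 1.17 ± 0.13). INSIG1 and SCD, looked up afterwards, rose by log2 changes of 0.84 and 0.68 (adjusted p = 1.2e-10 and 7.4e-10). The hypoxia-responsive NDRG1 went from 99.1 ± 2.22 to 283 ± 5.93 CPM (log2 change 1.51 ± 0.059, adjusted p = 3.8e-14), while ANGPTL4, an inhibitor of lipoprotein lipase, held 141, 116 and 139 CPM at 24 h and 37.7, 35.2 and 36.1 CPM at 48 h (log2 change -1.86 ± 0.088, adjusted p = 8.9e-13). The aldo-keto reductases AKR1C1, AKR1C2 and AKR1C3, NRF2 targets that are close copies of each other, were called lower together (log2 changes -1.296 ± 0.15, -1.102 ± 0.10 and -1.34 ± 0.13) from levels of 6.301, 13.4 and 8.32 CPM. Without Dox they were at 254, 507 and 139 CPM. ALDH3A1, an aldehyde dehydrogenase, went from 3.73 ± 0.903 to 0.631 ± 0.156 CPM (log2 change -2.49 ± 0.22, adjusted p = 1.5e-08). The cytochrome P450 genes CYP4B1 and CYP1B1 were called higher, from 0.63 ± 0.107 to 4.398 ± 0.712 CPM and from 2.66 ± 0.259 to 9.53 ± 2.73 CPM (log2 changes 2.799 ± 0.19 and 1.83 ± 0.18). CYP4B1 was at 42.8 CPM without Dox, above its level on both days. The metallothioneins MT1E and MT1X went from 151 ± 11.96 to 374 ± 27.6 CPM and from 22.2 ± 3.19 to 57.04 ± 2.66 CPM (log2 changes 1.31 ± 0.072 and 1.36 ± 0.080), and ABCA8, a lipid transporter, went from 2.02 ± 0.147 to 14.9 ± 0.266 CPM (log2 change 2.88 ± 0.15, adjusted p = 5.5e-12).

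**Figure D5:**
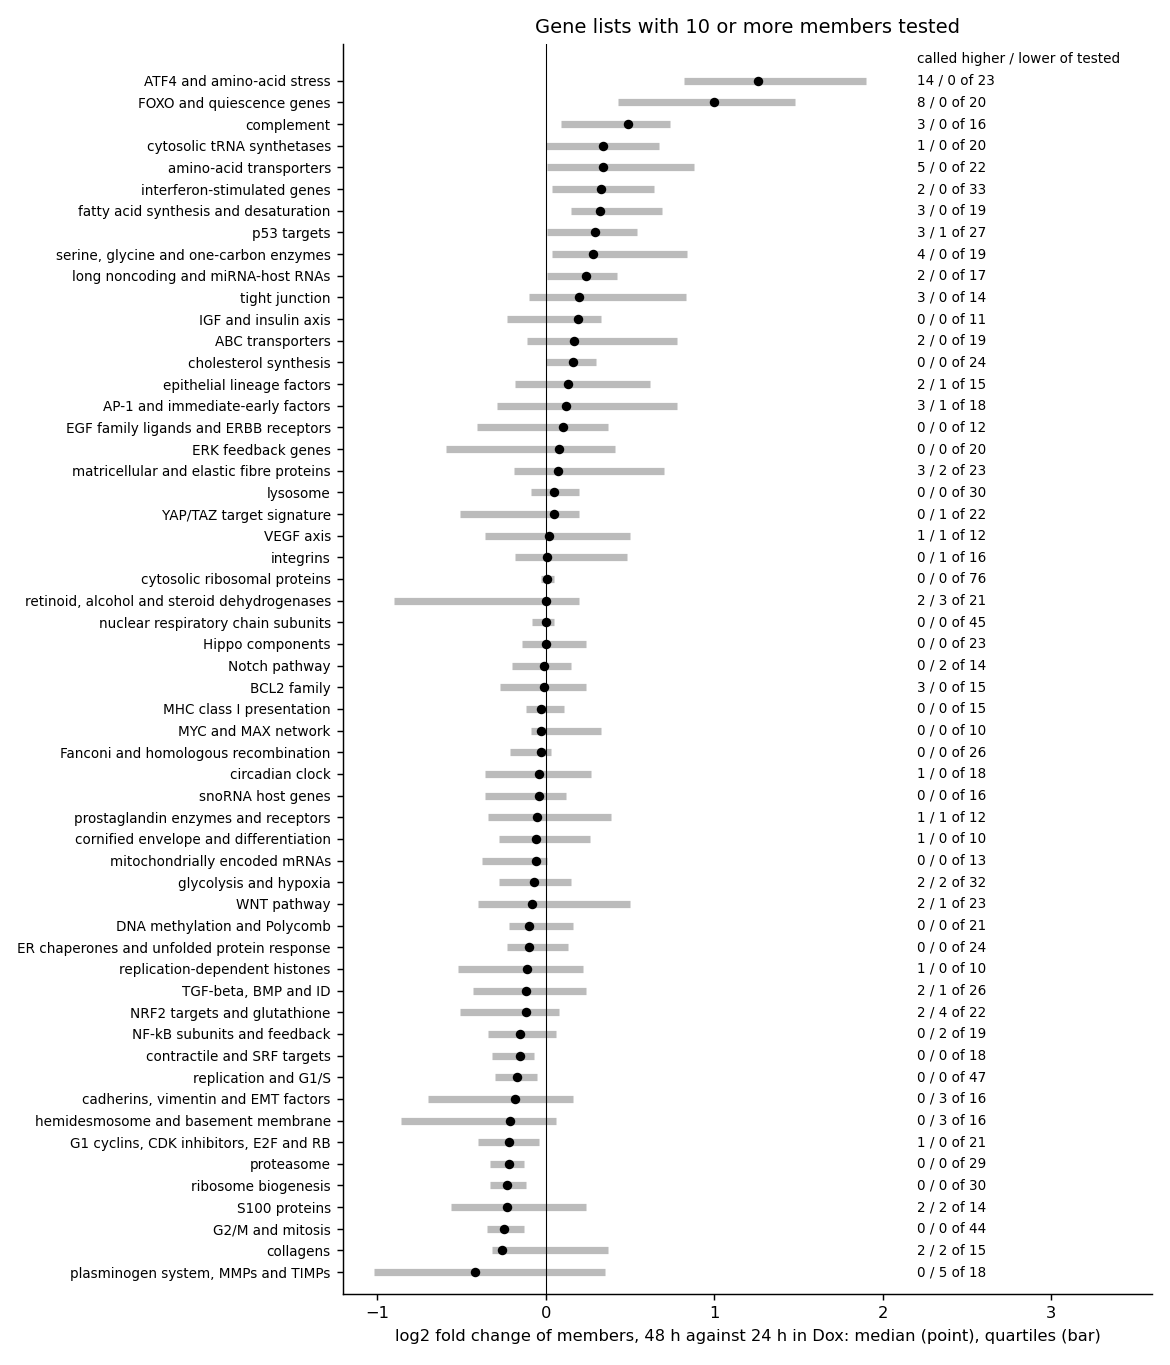
Median (point) and quartiles (bar) of the log2 fold change of the members of 56 gene lists with 10 or more members tested, with the members called higher and lower of those tested at the right. The list of ATF4 and amino-acid stress has the highest median, 1.26, followed by FOXO and quiescence genes at 1.0, and the plasminogen system has the lowest, -0.42.

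Signalling pathways held calls in both directions. Of 26 genes of the TGF-beta and BMP pathways tested, 2 were called higher and 1 lower. Of 23 WNT pathway genes 2 and 1 were called, of 14 Notch pathway genes 0 and 2, and of 12 genes of the VEGF axis 1 and 1, beside 3.08% and 1.44% of all genes. Of all 68 lists without the marker lists, 24 held no call, 20 held calls higher only, 9 held calls lower only and 15 held both. The BMP-responsive inhibitor of differentiation ID1 held 86.5, 79.99 and 88.6 CPM at 24 h and 219, 202 and 203 CPM at 48 h, with no overlap (log2 change 1.29 ± 0.064, adjusted p = 2.1e-12). The integrin ITGB6, which activates TGF-beta, went from 9.63 ± 1.01 to 3.48 ± 0.27 CPM (log2 change -1.46 ± 0.12, adjusted p = 9.0e-09, and -0.82, adjusted p = 0.089, in edgeR with effective lengths). The ligand WNT7A went from 2.23 ± 0.636 to 0.584 ± 0.0618 CPM and WNT9A from 1.21 ± 0.217 to 3.05 ± 0.639 CPM (log2 changes -1.94 ± 0.33 and 1.34 ± 0.23). KDR, a VEGF receptor usually of endothelium, rose from 0.234, 0.588 and 0.0605 CPM to 2.78, 2.96 and 2.01 CPM (log2 change 3.07 ± 0.32, adjusted p = 1.7e-07), whereas the ligand VEGFC went from 7.07 ± 0.946 to 2.54 ± 0.359 CPM (log2 change -1.48 ± 0.17, adjusted p = 9.1e-07). KDR was at 27.5 CPM without Dox and at 11.7 CPM at 72 h, so its 48 h level stayed under that without Dox. None of 12 EGF-family ligands and receptors and none of 20 ERK feedback genes was called in edgeR, where 5 and 8 rose and 3 and 6 fell at any fold. DUSP1 rose and DUSP4 fell, both phosphatases that switch off MAP kinases (log2 changes 0.64 ± 0.058 and -0.43 ± 0.052). NPAS2, a partner of the circadian clock, was the clock gene called higher (log2 change 1.13 ± 0.13, adjusted p = 7.2e-07).

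Several of the largest changes fell in no list. ADM2, a peptide hormone of the calcitonin family, held 0.514, 0.98 and 1.27 CPM at 24 h and 14.1, 12.3 and 12.6 CPM at 48 h. The ratio was 14.4 (log2 change 3.85 ± 0.25, adjusted p = 1.5e-10). Cardiac troponin T, TNNT2, went from 0.955 ± 0.191 to 12.9 ± 2.41 CPM (log2 change 3.75 ± 0.17, adjusted p = 7.9e-13). The placental alkaline phosphatase ALPP was the most abundant of this group, at 15.8, 16.2 and 17.96 CPM and then 110.2, 101 and 104 CPM (log2 change 2.66 ± 0.10, adjusted p = 2.8e-14). ALPP has close relatives in the genome, but its counts carried little of RSEM's uncertainty over shared reads (0.0191% of the count). The kinesin KIF21B, the synaptic vesicle protein SV2B and the lysosomal protein LAPTM5 were called higher too, by log2 changes of 2.79 ± 0.12, 2.82 ± 0.17 and 2.77 ± 0.19. LAPTM5 was at 35.7 CPM without Dox, 0.84 CPM at 24 h and 5.565 CPM at 48 h, whereas KIF21B and SV2B were at 2.67 and 0.365 CPM without Dox. In the other direction the ganglioside synthase B4GALNT1, the dynein assembly factor DAW1, the secreted protein GLIPR1, the adaptor AFAP1L2 and the podocyte actin-binding protein SYNPO changed by -1.995 ± 0.16, -1.97 ± 0.11, -1.82 ± 0.10, -1.81 ± 0.24 and -1.604 ± 0.17, from levels of 10.7, 22.4, 26.4, 7.62 and 8.04 CPM at 24 h. In each of these 8 genes the libraries of the 2 days did not overlap, which was a condition for choosing genes by the size of their change.

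Long noncoding RNAs were called at a higher rate than protein-coding genes in these libraries, 5.13% higher and 2.25% lower against 2.76% and 1.28%. At any fold the order was the other way, with 237 of 1423 long noncoding RNAs past the adjusted p (16.7%) against 5043 of 12597 protein-coding genes, and with median absolute log2 changes of 0.956 and 0.352 among those that passed. These differences were not tested. H19, an imprinted RNA, held 27.9, 22.1 and 30.5 CPM at 24 h and 109, 104 and 99.3 CPM at 48 h (log2 change 1.96 ± 0.10, adjusted p = 5.5e-12). LINC01133 went from 3.51 ± 0.477 to 14.4 ± 1.54 CPM (log2 change 2.04 ± 0.15, adjusted p = 7.4e-10), after an increase from 0.0942 CPM without Dox. ADAMTSL4-AS1 was also called higher, from 0.511 to 2.06 CPM, but it lies antisense to a gene and the strand setting of the counting is not given in the sources used here. The host transcript of a microRNA cluster, MIR503HG, went from 3.44 ± 0.644 to 1.15 ± 0.476 CPM (log2 change -1.61 ± 0.33, adjusted p = 6.9e-04). APPAT and ENSG00000277701, which are among the 5 noncoding RNAs lowest by fold, rested on reads that RSEM divided between similar loci, with an uncertainty of 29.4% and 45.96% of the count, and crossed the 2-fold line without 48 h replicate 2 and 24 h replicate 1 (log2 change -0.99 in both). Of all 669 calls, 47 carried such an uncertainty of over 5%. The largest fitted folds were of genes at under 2 CPM and are not quoted.

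Genes of other cell types were checked beside these results, because in bulk RNA fewer cells of a type and less RNA per cell cannot be told apart. The 14 epithelial markers summed to between 6338 and 7168 CPM at 24 h and between 7333 and 7862 CPM at 48 h. Of these markers 5 rose and 6 fell, with a median log2 change of -0.050, and the abundant KRT8 and KRT18 described above were among those that rose. The 10 fibroblast markers summed to between 26.98 and 29.34 CPM and then between 21.96 and 23.44 CPM, and COL1A2, COL3A1, DPT, PDGFRA and THY1 were at 0 in all 6 libraries. Of those measured, DCN was called lower (1.11 ± 0.396 and 0.191 ± 0.059 CPM) and PDGFRB higher (0.156 ± 0.0221 and 0.747 ± 0.156 CPM). DCN lost its call in edgeR with effective lengths as offsets (adjusted p = 0.18). The 12 leukocyte markers summed to between 9.21 and 11.6 CPM and then between 10.7 and 12.1 CPM, with PTPRC, CD3D, CD3E, MS4A1 and NKG7 at 0. The 9 endothelial markers summed to between 2.18 and 3.32 CPM and then between 4.02 and 4.37 CPM, which includes KDR, and ERG and TIE1 were at 0. The 7 erythroid markers summed to under 2.3 CPM and the 7 adipocyte markers to under 0.4 CPM in every library. The share of counts from mitochondrial rRNA, a sign of the selection for poly(A) RNA, was 0.217 to 0.244% at 24 h and 0.172 to 0.187% at 48 h. The share of all mitochondrial genes overlapped between the days, at 3.24 to 3.71% and 3.14 to 3.36%. For the first of these shares the exact two-sided permutation test gave p = 0.1, the smallest value that 3 libraries against 3 allow, and for the second p = 0.2. Whether these shares had a part in the differences above was not tested.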

How the data were processed

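Poly(A)-selected RNA of human MCF10A cells was sequenced in 12 libraries, 3 for each of 4 groups (No Dox and 24, 48 and 72 h in Dox). The authors aligned paired reads with STAR to GRCh38 and estimated gene counts with RSEM on GENCODE version 22 (for neither tool is a version, nor for the counting a strand setting, given in the sources used here). The deposited expected counts, which need not be whole because RSEM divides shared reads, were rounded. The deposited TPM values and effective lengths, and RSEM's posterior standard deviation of the count as deposited, served only for WWTR1, for alternatives and for the shares of uncertain reads. The columns of the authors hold no test of their own.

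Libraries held 15382546 to 26570119 counts. Genes were filtered with filterByExpr over all 12 libraries, scaled by TMM and fitted in edgeR 4.0.16 (R 4.3.3, limma 3.58.1) with a quasi-likelihood model of the 4 groups, so that all groups shared the estimate of the spread (biological coefficient of variation 5.71%). The contrast was 48 h minus 24 h, with Benjamini-Hochberg adjustment over the 14822 genes tested and calls at adjusted p under 0.05 and a fold of at least 2. CPM values use the TMM library sizes. The SE is the log2 fold change divided by the square root of the F statistic. The procedure was tested on simulated data. No pair of libraries of a group agreed within sampling noise. Floors cover counting error only, whereas the SE includes the spread between libraries.

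Symbols and coordinates came from GENCODE version 44 (GRCh38): 56321 of 60483 gene rows matched by stable ID, 393 through at least 80% of their transcripts and 3769 stayed without a name. Gene lists, markers and motifs were chosen with earlier results of these data known. Named genes are the TAZ panel, the 15 highest and 15 lowest log2 changes among protein-coding calls that did not overlap between libraries and reached 5 CPM on the higher side, the 5 smallest p in each direction, up to 6 called members of each list by size of change (or its 2 most abundant members where none was called), and the 5 highest and 5 lowest long noncoding calls with at least 2 CPM. Some genes that these rules choose are not reported here. Genes said to be looked up afterwards were chosen after values were seen, as were KRT18, KRT14, KRT5, TP63, CDH1, VIM, CCNB1, MKI67, CCND1, CDKN1A, ITGB4, FOXO1 and SEPTIN4. Motifs were searched in the first promoter that RefSeq's table (GRCh38.p14) lists for a symbol. Alternatives were other size factors, other filters, DESeq2 1.42.0, effective lengths as offsets, glmTreat, the 6 libraries alone, a replicate block and the omission of each library.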

Additional observations from a re-analysis of the deposited data

How the results depend on the processing

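The 456 genes called higher and 213 called lower stayed within 1.5 times of these counts under 10 of the 12 alternatives to the test, scaling, filter or samples that left out no library. The exceptions were edgeR's test against the fold threshold itself (glmTreat), which called 126 and 51, and the use of no fold threshold, which gave 2706 and 2708. Leaving out each library in turn gave 412 to 477 genes higher and 195 to 214 lower. The 5414 genes past the adjusted p at any fold became 3538 with RSEM's effective lengths as offsets in edgeR and 4384 to 5348 without a library, and the cause of the first was not tested. Of 127 called genes named above, which leave out ADAMTS9 and ADAMTS12, 111 kept the call under every alternative except glmTreat, and 82 kept it under glmTreat as well. MYC, which was not called, changed sign from 0.015 to -0.002 in DESeq2 with effective lengths and ranged from -0.005 to 0.039 without a library, the lowest without 48 h replicate 1.

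The groups share replicate numbers in the labels. The deviations of same-numbered 24 and 48 h libraries from their group means correlated at -0.09 to 0.32, with 2 of 3 pairs over 0.1. Pairs of 24 and 48 h libraries with unlike numbers ran from -0.348 to 0.259. Over all groups the mean correlation was 0.017 for same numbers and -0.009 for other pairs, and the numbers were not taken to pair the libraries. A fit with the replicate block called 448 genes higher and 207 lower, with 5540 past the adjusted p at any fold. Depth limits the low genes: 3 counts over the 3 libraries of a group correspond to 0.0514 CPM at 24 h.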
